A study of Mus musculus and Homo sapiens with 4 samples.

Results

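The most heavily sequenced mouse transcripts listed without a coding region are described here, 3252 rows of the 93380 transcripts in the mouse ribosome-profiling files. They were selected on measured read counts. A row qualified if its coding region was listed as missing, if its whole-transcript reads summed over the cycloheximide and emetine libraries reached 10000, and if the number in its identifier lay outside 82387 to 84200 and 157000 to 158999. In all, 49523 mouse transcripts lack a counted coding region, 46781 of them lie outside both identifier blocks, and the members are 6.95% of these 46781. Both libraries came from E14 embryonic stem cells of the 129/Ola background, grown feeder-free in LIF, the cytokine used to hold them in the undifferentiated state. Cells of the first library were exposed for 60 s to cycloheximide at 100 µg/ml and those of the second for 60 s to emetine, whose dose the labels do not give. Each drug has 1 library, so no test of the drugs exists, no p-value is given, and intervals cover counting error only.

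Ribosome profiling sequences the RNA pieces that survive nuclease digestion, most of which are shielded by a ribosome. Cycloheximide and emetine both stop elongating ribosomes, the first by binding the large ribosomal subunit and the second the small one. Transcripts listed without a coding region can be long noncoding RNAs, noncoding isoforms of protein-coding genes, pseudogenes, or structured RNAs held in protein complexes, and structured RNA in a protein complex can also resist nuclease without a ribosome. Which of these a member is could not be told here. None of the 3252 identifiers occurs in the 4 tables of names and sequences used (0 matches in each), so members are given by count, rank and identifier number, no sequence is printed, and markers of embryonic stem cells could not be looked up. The label was checked against the files: for 0 members does either library list a coding region, a 5' leader or a 3' trailer.

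The whole-transcript counts of the libraries sum to 342552347 with cycloheximide and 188700177 with emetine. Members held 30.6% of these with cycloheximide and 29.3% with emetine, a difference of -1.31 percentage points. With the identifier blocks kept, the difference turned to 3.68 points. Ratios of emetine to cycloheximide reads were scaled by 1.76, the factor that gives a log2 ratio of 0 to the median of 28604 coding regions, each with 100 or more summed reads. All ratios and fold values below are on this scale. A member had from 4407 to 687707 reads with cycloheximide (median 15832) and from 1605 to 639890 with emetine (median 7874). Just inside the minimum stood rows with 7068 and 2934 reads, and with 5877 and 4130 reads (cycloheximide first, as in all pairs of counts below). Just outside it stood rows with 7381 and 2616 reads, and with 6381 and 3611 reads.

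Most members had a scaled ratio somewhat below that of the median coding region, as had most abundant coding regions. A separate minority of members lay clearly above it. The median log2 ratio of the members was -0.26 (quartiles -0.49 and -0.000088), a level 1.20-fold lower with emetine, and 812 of the 3252 lay above 0. With no read minimum the median turned to 0.041. Coding regions with the same read minimum had a median of -0.19 over 4602 regions, 1243 of which (27.0%) lay above 0. By the 2-fold rule 152 members (4.67%) were higher with emetine and 61 (1.88%) were lower. Over all 57672 features with at least 100 summed reads the shares were near these, at 3.65% higher and 1.66% lower. Over the 4602 abundant coding regions they were 0.109% and 0.413%. All 5 abundant coding regions that were 2-fold higher had identifiers inside the blocks that the rule leaves out. Outside these blocks 0 of 4587 coding regions (0%) were higher and 18 (0.392%) were lower. Members were counted over the whole transcript, but these regions over the coding part alone. Counted over the whole transcript, 5520 coding transcripts with the same read minimum had a median log2 ratio of -0.12. Of these, 10 (0.181%) were higher and 2 (0.0362%) lower, and outside the blocks 4 of 5503 were higher and 2 lower. The ratio defines these subsets, so the counts describe the 2 libraries and are not a test.

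**Figure D1:**
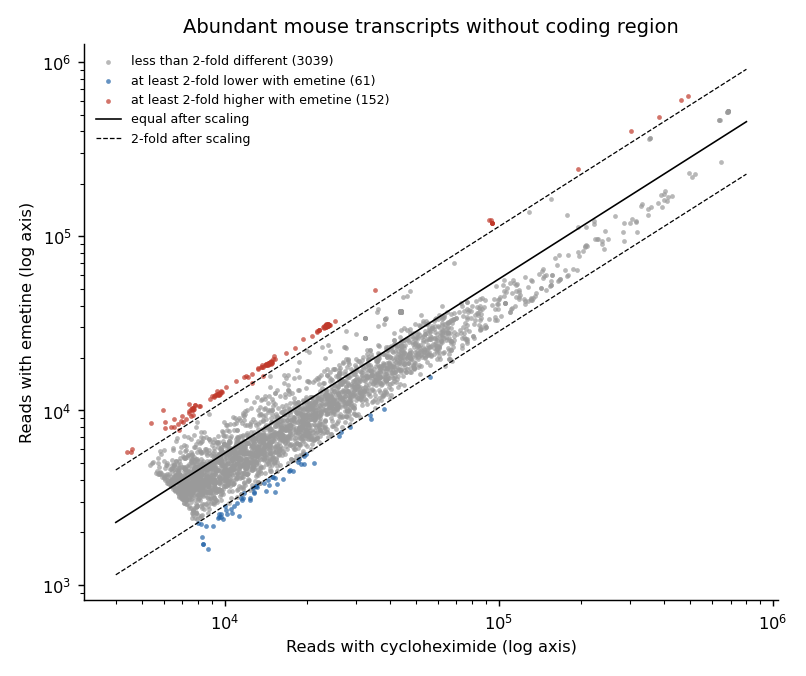
Reads of each member with cycloheximide (horizontal, log axis) and with emetine (vertical, log axis), 1 point per member. The solid line marks equal reads after scaling and the dashed lines 2-fold differences; the 152 higher members (red) form a band of their own above the upper dashed line, and the 61 lower members (blue) continue the main cloud downwards.

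The higher members stood apart from the rest, and the lower members did not. Of the 152 higher members, 145 (95.4%) had log2 ratios from 1.1 to under 1.3. The next steps down held 3 members from 1.0 to under 1.1, 6 from 0.9 to under 1.0 and 19 from 0.8 to under 0.9. The median of the higher members was 1.20, a level 2.30-fold higher with emetine (quartiles 1.18 and 1.22, SD 0.058 across rows), and the highest stood at 1.56. None reached 3-fold (0 members). Nearest the upper threshold, the members just inside had 6778 and 7729, and 12519 and 14297 reads, and those just outside had 19761 and 22116 (1.97-fold higher), and 8756 and 9511 reads (1.91-fold). Nearest the lower threshold, the members just inside had 7952 and 2258, and 19795 and 5612 reads, and those just outside had 12885 and 3670, and 63322 and 18037 reads. Most of these calls were clear of counting error at this depth, since the 95% exact (Clopper-Pearson) counting interval lay wholly beyond 2-fold for 149 of the 152 higher and 45 of the 61 lower members. Among members under 2-fold, the interval reached 2-fold higher for 1 and 2-fold lower for 25. These intervals do not cover differences between cultures, nor error in the scaling factor.

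**Figure D2:**
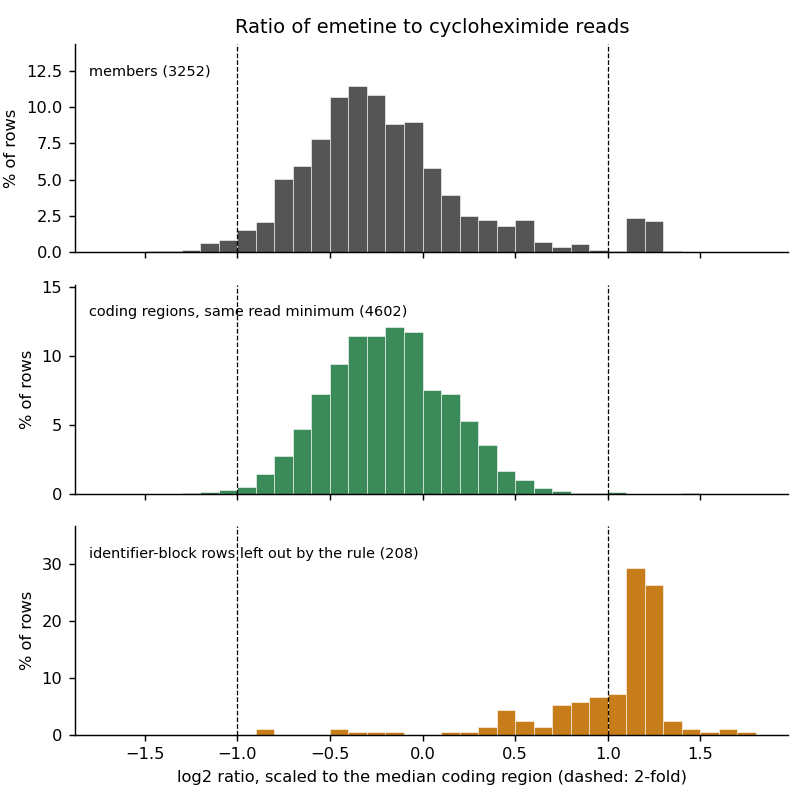
Distribution of log2 ratios (emetine over cycloheximide) as % of rows, in steps of 0.1, for the 3252 members, 4602 coding regions with the same read minimum and 208 abundant rows of the identifier blocks left out by the rule. Members have a main body like that of coding regions and a second, narrow peak from 1.1 to 1.3, where the block rows have their highest bars.

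The higher members had ratios in the same narrow step as many abundant rows of the left-out identifier blocks. The rule removes 208 rows that meet its other criteria because of their identifier number. Their median log2 ratio was 1.18, 142 of them (68.3%) passed the 2-fold rule upwards and 0 downwards. The 142 had a median of 1.20, as had the 152 higher members; both sets were selected by the same 2-fold rule, which brings their medians together. Of all block rows, 116 of 208 (55.8%) had log2 ratios from 1.1 to under 1.3. No coding region of the same abundance lay in that step (0 of 4602), and 2 of 5520 whole coding transcripts did. Block rows and higher members also had nearly the same counts in many cases. For 79 of the 152 higher members (52.0%) a block row existed whose counts were within 1% in both libraries. The same held for 22 of the 3039 members under 2-fold (0.724%) and for 0 of the 61 lower members. Among members with at least 50000 summed reads these shares were 46 of 61 higher members (75.4%) and 16 of the 747 others (2.14%). All 46 lay between 20762 and 25318 cycloheximide reads, in a cluster of 50 rows that form 8 count groups. With 30000 or more cycloheximide reads, 0 higher members had such a match. Ranks 1 to 10 in summed reads made up 10 of the 16 others. Rows with alike ratios match in both counts as soon as they match in 1, so part of this follows from the ratio that chose the subset. How often unrelated rows match in this way was not tested.

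Matches to coding transcripts went the other way. Of the members under 2-fold, 2062 (67.9%) had a coding region or whole coding transcript within 1% in both counts, against 2 of the 152 higher members (1.32%) and 4 of the 61 lower members (6.56%). With at least 50000 summed reads, where fewer rows lie close together, 0 of 61 higher members had such a match and 287 of the 747 others (38.4%) did. Few coding transcripts have ratios like those of the higher or lower subset, so here too the choice of subset enters the comparison. Counts identical to those of a coding transcript in both libraries were found for 1 member, and identical to those of another member for 84 rows. Reads that members share with overlapping coding isoforms could not be told apart, because the files give no coordinates.

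Near-equal counts were frequent among the members themselves, and grouping them changes what a count of rows means. Rows whose counts agree to 2 significant digits in both libraries form 1821 groups, of which 1108 hold a single row and 88 hold at least 5 rows (591 rows in all). The 4602 coding regions form 1888 groups by the same rule, with 2.44 rows per group against 1.79 for members. Near-equal counts were thus not confined to members. Rows per group also depend on how many rows lie at alike counts, so these averages do not rank the classes. The largest group of coding regions had 19 rows and that of members 31. At the level of groups, 71 (3.90%) had a mean past 2-fold upwards and 52 (2.86%) downwards. The size of this surplus depended on how closely counts had to agree. With 3 significant digits 138 groups were higher and 59 lower, and with identical counts 152 and 60. At 2 digits, 68 of the 152 higher rows stood in 7 groups of at least 5, while the lower groups held at most 3 rows each.

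The largest group was neither higher nor lower by the 2-fold rule. Its 31 rows had from 43516 to 44012 reads with cycloheximide (median 43799) and from 36611 to 37276 with emetine (median 36966). The mean log2 ratio was 0.57, a level 1.48-fold higher with emetine, with rows from 0.56 to 0.58. The variance among its rows was 0.42 times the mean with cycloheximide and 0.74 times with emetine. Counting error alone would give about the mean for unselected rows of equal abundance. These rows were selected for near-equal counts, so that value is no yardstick for them. All 31 identifiers carry numbers from 177555 to 180334. The second-largest group, of 22 rows, was higher: from 23522 to 24154 reads with cycloheximide (median 23748.5), from 30603 to 31398 with emetine (median 31072), and a mean log2 ratio of 1.20 (2.29-fold). For each of its 22 rows a block row had counts within 1%. Of the 88 groups of at least 5 rows, 12 had a mean ratio above 0, and in 10 the variance was below the mean in both libraries. Membership in a group was defined by near-equality, so a small variance is partly given by the rule, and whether the rows share reads was not tested.

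**Figure D3:**
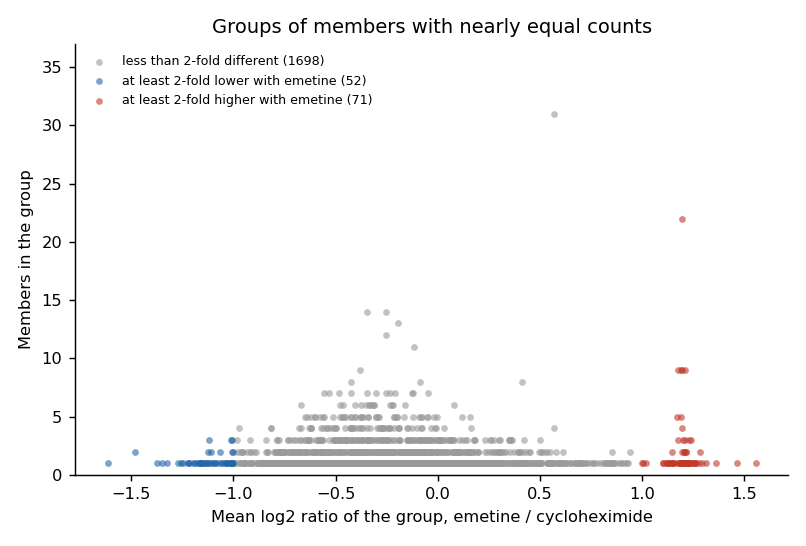
Each point is 1 of the 1821 groups of members with nearly equal counts, by the mean log2 ratio of the group (horizontal) and its number of members (vertical). The group of 31 rows stands at 0.57 and the group of 22 rows at 1.20, and the 52 lower groups hold at most 3 rows.

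The most abundant members had ratios on both sides of 0, and some of them formed sets of rows with nearly equal counts. Ranks 1 to 10 in summed reads were 10 rows with nearly the same counts, from 680539 to 687707 with cycloheximide and from 517102 to 521947 with emetine. Their log2 ratios lay between 0.41 and 0.42, about 1.33-fold higher with emetine, and each of the 10 had a block row within 1% in both counts. Rounding put 8 of these rows in the same group, from 686868 to 687707 reads with cycloheximide and from 520412 to 521947 with emetine. The other 2 formed a separate group, from 680539 to 680832 reads with cycloheximide and from 517102 to 517437 with emetine. In the 8 rows the variance was 0.17 times the mean with cycloheximide and 0.38 times with emetine. This small variance is partly given by the rounding and does not describe all 10 rows, whose counts spread more widely. Rank 12 belonged to a group of 3 rows and had 639948 and 464468 reads, a ratio 1.28-fold higher. Rank 16, by contrast, had 646483 and 268197 reads and was 1.37-fold lower (95% exact counting interval 1.37 to 1.38). Ranks 18 and 19, with 517222 and 228206, and with 493948 and 230480 reads, were 1.29-fold and 1.22-fold lower. Rank 20, with 356934 and 367061 reads, was 1.81-fold higher. Of the 34 members with at least 500000 summed reads, 20 had ratios above 0, from 0.35 to 1.22, and 14 had ratios from -0.61 to -0.29. No member of this abundance lay between these ranges. The 52 coding regions with as many reads had a median of -0.63, and 0 of them were 2-fold higher.

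The higher subset held both very abundant and less abundant rows, with none from 100000 to under 200000 summed reads. ENSMUST00000093721, rank 11, had 489566 cycloheximide and 639890 emetine reads, 2.30-fold higher (interval 2.29 to 2.31). ENSMUST00000101817, rank 15, had 463472 and 606448 reads, also 2.30-fold higher (interval 2.29 to 2.31). These are the most abundant higher members of their count groups. They have more raw reads with emetine although that library is the shallower. Every member past 2-fold upwards must, since the scaling factor of 1.76 is below 2. Rank 17 had 385406 and 485914 reads and was 2.22-fold higher. With the other two, the 5 most abundant higher members had from 193604 to 489566 reads with cycloheximide and from 242955 to 639890 with emetine, and log2 ratios from 1.14 to 1.22. Below these stood 6 rows with 92276 to 94275 reads with cycloheximide and 119631 to 124813 with emetine, and 4 of them differed by at most 3 reads with cycloheximide (94272 to 94275) and 4 with emetine (119631 to 119635). A single row followed with 35253 and 49170 reads. The densest cluster was of 50 rows between 20762 and 25318 reads with cycloheximide (median 23530) and between 26882 and 32671 with emetine (median 30750). Their log2 ratios ran only from 1.17 to 1.22, 46 of the 50 had a block row within 1%, and 46 had identifier numbers from 177000 to 180999, a range taken up below. Further down, 35 rows had from 12159 to 16719 reads with cycloheximide and a median log2 ratio of 1.18, 21 rows had from 8863 to 11923 and a median of 1.21, and 27 rows from 6044 to 8134 had a median of 1.21. The lowest level, of 5 rows from 4407 to 5971, had a median of 1.21, with log2 ratios from 1.15 to 1.56. In the levels given here that hold at least 5 rows, the median log2 ratio was from 1.16 to 1.21. Their cycloheximide counts ran from 4407 to 489566. The 2-fold rule chose every row in these levels, so alike medians are partly given by that rule. The 3 highest ratios belonged to members of low abundance: 5971 and 10009 reads (2.95-fold higher), 5362 and 8422 reads (2.76-fold) and 7416 and 10848 reads (2.57-fold). These levels were set after the values were seen.

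Higher members were concentrated in narrow ranges of identifier number. The number in a transcript identifier is a catalogue number and not a place in the genome. Identifiers were put in bins 1000 numbers wide, and adjacent bins with at least 10 members, of which at least 10% were higher, were joined, by settings chosen after the values were seen. This gave 4 ranges. Of the 299 members numbered 177000 to 180999, 104 (34.8%) passed the 2-fold rule upwards and 2 downwards, and these 104 are 68.4% of all higher members. Another 66 of the 299 had log2 ratios from 0.3 to under 0.7, among them the group of 31 rows, and 129 lay in neither set. In count groups, 39 of the 179 groups in this range (21.8%) were higher. The 17 members numbered 93000 to 93999 included 9 higher ones (52.9%), the 13 numbered 101000 to 101999 included 5 (38.5%), and the 12 numbered 104000 to 104999 included 6 of them. Elsewhere 28 of 2911 members (0.962%) were higher. The ranges were picked for their higher members, so these shares describe where they lie and test nothing. Without the range 177000 to 180999, 48 of 2953 members (1.63%) were higher and 59 lower. That range was the one with the most higher members, so leaving it out had to shift the balance this way. The 99 abundant coding regions numbered 177000 to 180999 included 0 higher ones and had a median log2 ratio of -0.18. Members of that range held 18.1% of all member reads, and 13 of the 34 members with at least 500000 reads lay in it.

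**Figure D4:**
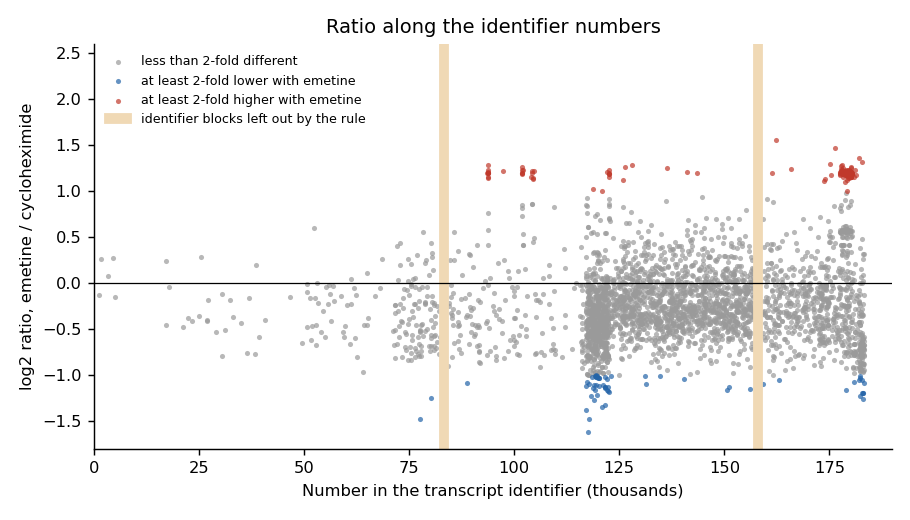
Log2 ratio (emetine over cycloheximide) of each member against the number in its transcript identifier (unit of 1000), with the 2 identifier blocks left out by the rule shaded. Higher members (red) gather between 177000 and 180999 and in the ranges that start at 93000, 101000 and 104000; lower members (blue) gather between 117000 and 122999 and from 182000 to 182999.

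The lower members gathered in other identifier ranges and were less abundant. ENSMUST00000119961 had 55835 cycloheximide and 15502 emetine reads, 2.05-fold lower (interval 2.01 to 2.09), and was the most abundant of them at rank 471. ENSMUST00000088784, the next, had 38083 and 10223 reads, 2.12-fold lower (interval 2.07 to 2.17). The following 2 in abundance had 33793 and 9380 reads, 2.05-fold lower, and 34045 and 8883 reads, 2.18-fold lower. The lowest ratio of all members belonged to a row with 8648 and 1605 reads, 3.07-fold lower (interval 2.91 to 3.24). Next came a pair of rows with identical counts of 8356 and 1703, 2.79-fold lower. Joining bins with at least 50 members, of which at least 3% were lower, gave 2 ranges, again by settings chosen after the values were seen. Of the 61 lower members, 36 (59.0%) were numbered 117000 to 122999, where 625 members had a median log2 ratio of -0.42. Of these 625, 5.76% were lower and 8 (1.28%) were higher. Coding regions in the same range of numbers had a median of -0.23 over 130 regions, 0 of them 2-fold lower. The 87 members numbered 182000 to 182999 had a median of -0.67, with 8 lower (9.20%) and 2 higher. The 2540 members outside both ranges had a median of -0.22, and 17 of them (0.669%) were lower.

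Counted in rows, the share of higher members grew with abundance in most steps, while the share of lower members shrank. Of 1364 members with 10000 to under 20000 summed reads, 32 (2.35%) were higher and 43 (3.15%) lower. The 1080 members with 20000 to under 50000 included 59 higher (5.46%) and 17 lower ones (1.57%). The 576 members with 50000 to under 100000 included 50 higher (8.68%) and 1 lower (0.174%). Most of these 50 stood in count groups of 22, 9 and 9 rows. Shares of groups were not computed by step but only for nested read minima, which cannot show a change from step to step. With the minimum of 10000 reads 71 of 1821 groups were higher, and with a minimum of 30000 reads 27 of 727. From 100000 to under 200000 reads 0 of 131 members passed in either direction. Of the 67 members from 200000 to under 500000 reads 7 were higher, and of the 34 above that 4 were higher, with 0 lower in both. The median log2 ratio went from -0.21 in the lowest step to -0.46 from 100000 to under 200000 reads. It was 0.39 in the uppermost, where 10 of the 34 rows are the near-equal rows at ranks 1 to 10. In coding regions the median went from -0.10 in the lowest step to -0.48 from 100000 to under 200000 reads and -0.63 in the uppermost.

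**Figure D5:**
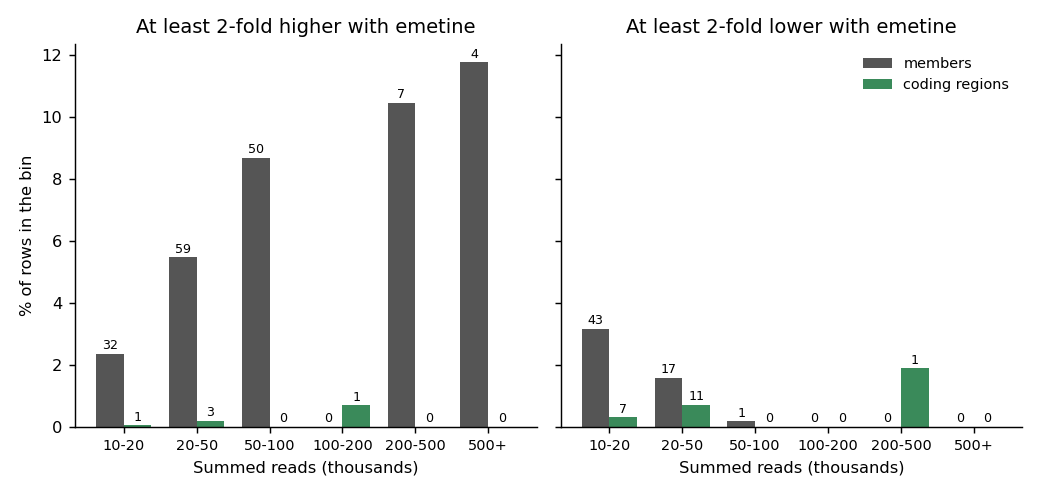
Share of rows (%) at least 2-fold higher (left) or lower (right) with emetine, by summed reads (unit of 1000), for members and for coding regions; the number above each bar is the count of rows. The higher share of members is 8.68% from 50000 to under 100000 reads, where 0 coding regions are higher. It is 0% from 100000 to under 200000 reads, where 1 coding region is higher. In the upper steps it is 10.4% (7 rows) and 11.8% (4 rows), with 0 coding regions higher in each. Bars count rows, many of which have nearly equal counts, and not count groups.

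The higher members took a larger part of the members' reads with emetine. They held 4.35% of the members' reads with cycloheximide and 10.7% with emetine, and the lower members 0.895% and 0.447%; both subsets were chosen by their ratio, so their shares had to differ in this direction. Taking 1 mean per count group in place of every row, the higher groups held 4.28% and 11.0%. Of all counts in the libraries, the higher members were 1.33% with cycloheximide and 3.15% with emetine. The abundant rows of the identifier blocks, which the rule leaves out, were 5.06% and 10.0% of all counts.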

How the data were processed

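The values deposited by the authors are raw read counts, with 1 file per library. Per the file headers a row gives the reads of a whole transcript and those of its coding region, 5' leader and 3' trailer. The submitters' processing notes list CASAVA 1.8, Bowtie2 2.0.6, TopHat2 2.0.7, mm10 and hg19 and say nothing of their roles. The way reads were counted, with which annotation and with what treatment of several matches, was not given in the sources used here. Whether a read entered several rows is therefore unknown. Per the labels' protocols, RNase I footprints were recovered by pelleting ribosomes and amplified by PCR; no molecular identifiers are named.

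Before taking log2, 0.5 scaled reads were added to each count. Groups were formed by rounding both counts to 2 significant digits. A count of rows within 1% uses the larger of the 2 percent differences. Median scaling was the main choice; edgeR 4.0.16 supplied TMM scaling in R 4.3.3, and all else was computed with Python 3.11.15, pandas 2.3.3 and scipy 1.17.1. The calculation was checked on simulated counts with counting noise alone, which does not test the calls in these libraries. Members, ranges and subsets were chosen with earlier results of these data known. By identifier only the 2 most abundant higher and 2 most abundant lower members, 1 per count group, are named; others go by rank or value, and the extremes of the ratio and the clusters of counts were chosen after their values were seen. Planned gene lists and cell markers were not used, because identifiers could not be paired with names. The 2 HEK libraries of the series were not used.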

Additional observations from a re-analysis of the deposited data

How the results depend on the processing

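No paired analysis was possible because there is a single library for each drug, and for the same reason no replicate could be left out. The count of higher members was 153 with total-count scaling (which shifts every log2 ratio by 0.047) and 149 with TMM scaling (-0.045). Lower members were 43 and 86 (main 61), higher groups 71 and 68, and lower groups 37 and 65 (main 52). The cause of changes below was not tested beyond what each setting does by construction. The members' median was -0.22 with total counts and -0.31 with TMM; higher abundant coding regions were 1 with TMM, and lower ones 9 and 29. With a minimum of 30000 reads, which leaves 1349 members, the median was -0.31, with 95 members higher and 7 lower, 27 and 7 groups, and 3 and 3 coding regions. At a minimum of 1000 the same values were -0.026, 345 and 221, 234 and 189, and 30 and 60. With no minimum the median turned to 0.041, with 3617 and 4608 members, 1464 and 932 groups, and 2035 and 4147 coding regions. Keeping the identifier blocks gave a median of -0.24, 294 higher members, 118 higher groups and a share difference of 3.68 points, opposite in sign to the main -1.31; without the 10 most abundant members it was -2.06 points. At 1.5-fold, 569 members were lower, 130 groups higher and 382 lower, and 37 coding regions higher and 484 lower. At 3-fold, 0 members were higher and 1 lower, 0 groups higher and 1 lower, and 0 coding regions passed in either direction. Identical counts as the grouping gave 152 higher and 60 lower groups, 1 significant digit 20 higher and 6 lower, and 3 significant digits, added after seeing the data, 138 higher and 59 lower. A prior of 5, a coding region missing in both files, and leaving out the member that repeats a coding transcript's counts moved none of the results they were applied to beyond these limits: 1.5 times for counts, the 95% rank interval for the median, counting error for the share. In all, 30 of 76 recomputed values, these included, stayed within them.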
